A study of Mus musculus with 30 samples.

Results

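Of the 1417 intervals that V5 ChIP-seq gave for the fusion protein ER-HOXA9 in the presence of estradiol (E2), 338 (23.9%) had no base in common with any interval of the V5 list for HOXA9 without the receptor part. These 338 sites are described here. They were chosen by that absence alone, on chromosomes 1 to 19 and X of mm10, so both V5 lists were used to choose them. The other 1079 ER-HOXA9 sites were shared with the HOXA9 list, which held 17006 intervals, 15927 of them absent from the ER-HOXA9 list (HOXA9-only sites).

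HOXA9 is a homeodomain transcription factor of blood stem and progenitor cells. It binds DNA together with the cofactors PBX and MEIS, and its continued activity holds myeloid progenitors in an immature state. When the part of the estrogen receptor (ER) that binds hormone is joined to it, HOXA9 works only while E2 is in the medium, and removing E2 lets the cells differentiate. H3K4me3, trimethylation of lysine 4 of histone H3, marks active promoters.

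The series is chromatin immunoprecipitation with sequencing (ChIP-seq) in cultured mouse cells of strain C57BL/6, and set cells before commitment to myeloid differentiation beside committed cells. The groups used here were V5-ER-Hoxa9-AM cells in E2 (a V5 and an AM ChIP), V5-ER-Hoxa9-AM cells after 72 h without E2 followed by 48 h with it (V5), and untreated V5-Hoxa9-AM cells (V5 and AM). The label AM is not explained, and both AM samples carry V5 as their antibody entry, so they were taken as AM from their titles. H3K4me3 came from another line, ER-Hoxa9-Lys-GFP, kept in E2, deprived of E2 for 24, 40 or 72 h and returned to it for 96, 80 or 48 h, or deprived for 120 h. Each group was 1 library, so no difference had a replicate check and no test was made. Shares are given with 95% exact (Clopper-Pearson) intervals and differences with Newcombe intervals, which cover the counting of peaks only, and neighbouring peaks are not independent. The lists held coordinates without scores or counts, and the sources used here do not give read depth. In the E2 list, H3K4me3 lay at a gene end of 7 of 8 myeloid progenitor markers, all but Spi1, which carried it inside the gene, and of 1 of 7 markers of other lineages (Klf1).

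At 10 of the 338 sites the interval reached into a RefSeq promoter window, which runs from 250 bases before to 50 bases after a start site (2.96%). This was so at 27 of 1079 shared sites (2.50%) and at 2.61% of all ER-HOXA9 V5 sites. Such windows were available for 17274 of the 21631 protein-coding genes (79.9%). A site at a start site without a window could not be counted but stays in these totals, so the shares may be too low. Most sites lay outside the available windows, and no genome sequence was used for them. The 3 windows printed here, from the RefSeq GRCm38.p6 promoter table, were chosen after their values were seen, 2 because the site covers much of the window of a gene of immune cells or blood progenitors, and Gpr12 because H3K4me3 lay there as well. Capitals mark the bases inside the ER-HOXA9 site. Havcr2 encodes TIM-3, an inhibitory receptor of immune cells, and its window is chr11:46454681-46454980 on the plus strand. Gpr12 encodes an orphan G protein-coupled receptor, and its window is chr5:146585190-146585489 on the minus strand. Cbfa2t3 encodes ETO2, a transcriptional corepressor of blood progenitors, and its window is chr8:122699060-122699359 on the minus strand.
Havcr2: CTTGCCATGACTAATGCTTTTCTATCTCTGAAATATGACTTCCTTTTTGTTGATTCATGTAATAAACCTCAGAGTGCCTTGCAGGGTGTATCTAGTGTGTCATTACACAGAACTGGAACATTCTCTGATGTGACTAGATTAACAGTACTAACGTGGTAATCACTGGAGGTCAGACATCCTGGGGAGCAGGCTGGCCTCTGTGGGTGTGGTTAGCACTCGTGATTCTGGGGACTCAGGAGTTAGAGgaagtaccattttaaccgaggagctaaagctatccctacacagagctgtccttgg
Gpr12: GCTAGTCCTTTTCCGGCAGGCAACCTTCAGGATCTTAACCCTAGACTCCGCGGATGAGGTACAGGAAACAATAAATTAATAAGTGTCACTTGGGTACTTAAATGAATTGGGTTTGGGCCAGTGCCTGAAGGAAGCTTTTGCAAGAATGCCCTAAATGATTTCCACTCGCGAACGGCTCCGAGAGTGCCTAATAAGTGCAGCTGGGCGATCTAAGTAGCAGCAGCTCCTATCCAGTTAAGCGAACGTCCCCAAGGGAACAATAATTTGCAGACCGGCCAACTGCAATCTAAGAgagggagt
Cbfa2t3: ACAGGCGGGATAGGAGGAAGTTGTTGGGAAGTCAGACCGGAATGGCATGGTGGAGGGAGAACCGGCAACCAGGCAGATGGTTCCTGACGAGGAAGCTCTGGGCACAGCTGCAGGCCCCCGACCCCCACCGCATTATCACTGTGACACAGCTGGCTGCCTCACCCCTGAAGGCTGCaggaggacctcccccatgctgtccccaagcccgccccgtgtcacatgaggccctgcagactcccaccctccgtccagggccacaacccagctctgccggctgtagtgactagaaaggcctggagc
The site covered 245 of the window's bases at Havcr2, 292 at Gpr12 and 175 at Cbfa2t3. H3K4me3 lay over the Gpr12 site in 4 of 5 lists and over neither of the other two in any list.

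A set of 4 short motifs was searched on both strands of the 10 windows. None held the palindromic estrogen response element, the HOXA9 and PBX motifs TGATTTAT or TGATTTAC, or the MEIS motif TGACAG. Over all 32619 windows of the table these were found in 0.0705%, 0.981%, 0.543% and 18.9%. In the 29 windows reached by shared sites, the 4 motifs were found in 0, 0, 1 and 6 windows. Sites outside promoter windows were not searched.

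Together the 5 V5 and AM lists held 17928 distinct intervals, none of which overlapped another. Wherever intervals of 2 lists overlapped, their coordinates were identical, so a site was either shared exactly or not at all. How the lists came to share coordinates is not given in the sources used here, so a width cannot be assigned to 1 library. The sites absent from the HOXA9 list were narrow. Their median width was 278.5 bp (quartiles 237.5 and 342.8, range 186 to 715), against 503 bp in shared sites (quartiles 402.5 and 642.5, range 212 to 1940). The HOXA9-only sites had a median of 299 bp. By width, 244 of the 355 narrowest ER-HOXA9 sites (68.7%, 186 to 333 bp) were absent from the HOXA9 list, then 71 of 354 (20.1%, 333 to 445 bp), 18 of 354 (5.08%, 446 to 594 bp) and 5 of 354 (1.41%, 595 to 1940 bp). Width came from the lists the choice was made on, so these values are a description.

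**Figure D1:**
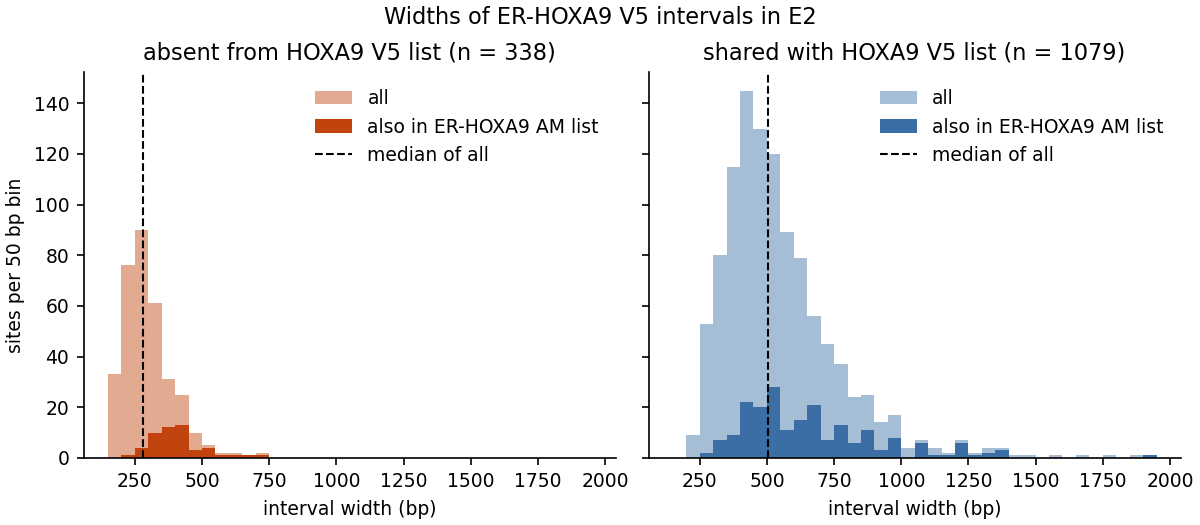
Number of ER-HOXA9 V5 sites in E2 per 50 bp of interval width (bp), at left the 338 absent from the HOXA9 V5 list and at right the 1079 shared with it, with sites also in the ER-HOXA9 AM list darker and dashed lines at the medians. The median was 278.5 bp in absent sites, against 503 bp in shared sites.

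The widest of the 338 sites were chosen by rank. The widest, 715 bp at chr12:12496493-12497207, lay 115528 bp from the nearest protein-coding gene end, that of Cyria, which encodes a RAC1-interacting protein. A second site nearest to Cyria, chr12:12562177-12562743, was 567 bp wide. Sites of 709 bp nearest to Lratd2 and of 675 bp nearest to Ndufa4, a subunit of cytochrome c oxidase, followed. The Ndufa4 site, chr6:11593687-11594361, lay 306011 bp from that gene. A site of 632 bp at chr6:88116792-88117423 lay 11488 bp from Rpn1, a subunit of the oligosaccharyltransferase, and 76467 bp from Gata2, a transcription factor of blood stem cells. Inside genes, sites of 621 bp lay in Map3k1, a kinase of the JNK pathway, of 566 bp in Wipi1, an autophagy protein, of 517 bp in Egln1, an oxygen-sensing prolyl hydroxylase, and of 505 bp in Ebf1, a transcription factor of B cell precursors. Others among the widest were 510 bp nearest to Rbm19 and 501 bp inside Col4a6, a chain of collagen IV.

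The list of the AM ChIP of the same cells in E2 was not used in choosing the sites. It held 51 of the 338 sites (15.1%, 11.4 to 19.4), against 204 of 1079 shared sites (18.9%, 16.6 to 21.4). Of all ER-HOXA9 V5 sites it held 18.0%. The difference between absent and shared sites, -3.82 percentage points, had an interval of -8.02 to 0.941, which includes 0. Of the 258 sites of the ER-HOXA9 AM list, 255 (98.8%) were in the ER-HOXA9 V5 list. Of the 258, 53 (20.5%) were absent from the HOXA9 V5 list, and 51 of those were among the sites described. The other 205 were in the HOXA9 V5 list, and coordinates were common to the lists. The ER-HOXA9 AM list is therefore not shown to be independent of the choice. In width the 51 sites had a median of 395 bp and the 286 sites found in no other V5 or AM list one of 268.5 bp. The widest of the 51 included those nearest to Cyria (both sites), Ndufa4, Rpn1, Egln1, Rbm19 and Ebf1, named above, and sites of 492 bp nearest to Ednra, an endothelin receptor, and 481 bp nearest to Zbtb20, a zinc finger repressor.

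Within classes of interval width the AM list held a larger share of the absent sites than of shared sites in the middle of the width range, though not over all sites. Between 333 and 445 bp it held 28 of 71 absent sites (39.4%), against 31 of 283 shared sites (11.0%), a difference of 28.5 points (17.1 to 40.5). Between 446 and 594 bp it held 9 of 18 absent sites, against 59 of 336 shared sites (17.6%), a difference of 32.4 points (11.0 to 53.7). In the narrowest class the shares were 4.51% of absent sites and 7.21% of shared sites, with a difference of -2.70 points (-9.37 to 2.18). The widest class held only 5 absent sites, 3 of them in the AM list, against 30.4% of shared sites. The split by width was chosen after the values were seen.

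The AM ChIP of the V5-Hoxa9-AM cells held almost none of them. Of the 338 sites, 1 was in the HOXA9 AM list (0.296%, 0.00749 to 1.64), against 849 of 1079 shared sites (78.7%, 76.1 to 81.1) and 60.0% of all ER-HOXA9 V5 sites. The difference was -78.4 points (-80.7 to -75.5). The site lay at chr6:120453190-120453533, 8616 bp from Kdm5a, a demethylase of H3K4, and 475 bp from the nearest HOXA9 V5 site. None of the 51 sites in the ER-HOXA9 AM list was in the HOXA9 AM list, which allows a share of up to 5.88% taken as 3 sites of 51 and 6.98% as the exact upper bound, against 178 of the 204 shared sites of that list (87.3%). Sites in the ER-HOXA9 AM list and not in the HOXA9 AM list thus made up 15.1% of absent sites, 2.41% of shared sites and 5.43% of all ER-HOXA9 V5 sites, a difference of 12.7 points (9.09 to 17.0) between absent and shared sites. The choice removed every site of the HOXA9 V5 list, and 6195 of 6773 HOXA9 AM sites (91.5%) are in that list, so the HOXA9 AM list is not independent of the choice.

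After 72 h without E2 and 48 h with it again, the V5 list of the V5-ER-Hoxa9-AM cells was short, with 387 sites. It held 5 of the 338 sites (1.48%, 0.482 to 3.42), against 235 of 1079 shared sites (21.8%, 19.3 to 24.4) and 16.9% of all ER-HOXA9 V5 sites in E2. The difference was -20.3 points (-23.0 to -17.2). All 5 were also in the ER-HOXA9 AM list of E2, and 6.77% of all ER-HOXA9 V5 sites were in both of these lists. They were the sites nearest to Ndufa4 (675 bp), Rbm19 (510 bp) and Zbtb20 (481 bp), the 567 bp site nearest to Cyria, and a 446 bp site inside Ank2, which encodes an ankyrin. Among sites of the AM list, 5 of 51 absent sites (9.80%) were in the 72 h list, against 91 of 204 shared sites (44.6%). In the 72 h list 376 of 387 sites (97.2%) were also in the HOXA9 V5 list, which leaves 11 that could be absent sites, so this list too is not independent of the choice. Width moved with this result as well. In the narrowest class neither group had a site in the 72 h list, 0 of 244 absent sites and 0 of 111 shared sites. Between 333 and 445 bp the counts were 0 of 71 absent sites and 25 of 283 shared sites (8.83%), a difference of -8.83 points (-12.7 to -3.00). Between 446 and 594 bp they were 4 of 18 absent sites (22.2%) and 69 of 336 shared sites (20.5%), with a difference of 1.69 points and an interval that includes 0. The part of width in the difference over all sites was not tested.

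Together, 286 of the 338 sites (84.6%, 80.3 to 88.3) were in none of the ER-HOXA9 AM, HOXA9 AM and 72 h V5 lists, against 198 of 1079 shared sites (18.4%, 16.1 to 20.8) and 34.2% of all ER-HOXA9 V5 sites. Much of this difference lies in the HOXA9 AM list, which is tied to the choice. Without that list, 287 absent sites (84.9%, 80.6 to 88.6) were in neither the ER-HOXA9 AM nor the 72 h list, against 731 shared sites (67.7%, 64.9 to 70.5) and 71.8% of all, a difference of 17.2 points (12.2 to 21.6). That comparison was added after seeing the data, and neither of its lists is shown to be independent of the choice. Of the HOXA9-only sites, 66.3% were in none of the 3 lists. The 286 sites were listed in 1 library alone.

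**Figure D2:**
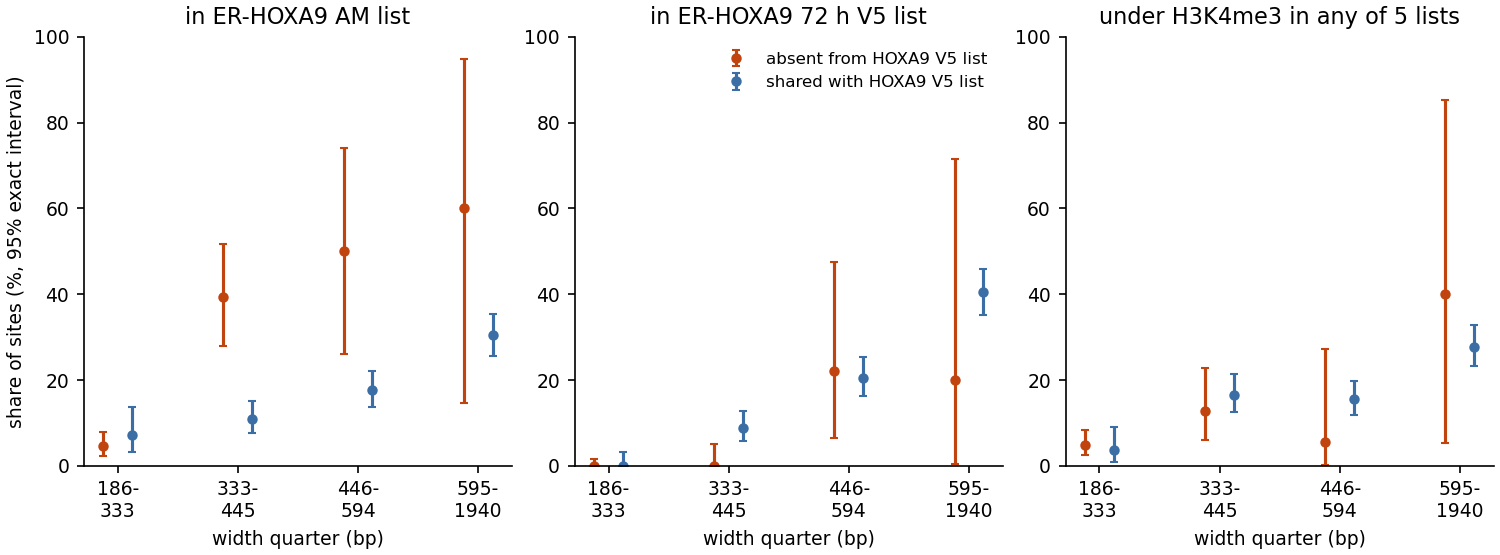
Share of ER-HOXA9 V5 sites (%) in the ER-HOXA9 AM list, in the 72 h V5 list and under H3K4me3 in any of 5 lists, in 4 classes of interval width (bp), with absent sites left of shared sites and bars for 95% exact intervals. Between 333 and 445 bp the AM list held 39.4% of absent sites and 11.0% of shared sites, and the 72 h list 0% of absent sites and 8.83% of shared sites.

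Most of the 338 sites lay over 10 kb from any HOXA9 V5 site. Gaps were measured to the list the choice was made on and were not computed for other positions. They are a description and do not show the sites to be unusually far from HOXA9 sites. The gap, in bases between intervals, had a median of 61015 bp, quartiles of 11392.5 and 208228.2 bp and a range of 35 to 3490747 bp. Under 1 kb lay 13 sites, between 1 and 10 kb 70, between 10 and 100 kb 122 and over 100 kb 133. The AM list held 1 of 13, 9 of 70 (12.9%), 14 of 122 (11.5%) and 27 of 133 (20.3%, 13.8 to 28.1) of them. The 5 sites just inside the choice had gaps of 35 bp (in Tmem131), 95 bp (in Dlg2), 121 bp (nearest to Slc24a2), 318 bp (nearest to Vsig4) and 321 bp (in Rora, a nuclear receptor). The Slc24a2 site was 468 bp wide and in the AM list, and the other 4 were not in it. Every shared site overlapped the HOXA9 list in full, so none lay just outside the choice. The narrowest shared intervals were 212 bp (nearest to St8sia6), 215 bp (Kif2a), 221 bp (Capn13), 229 bp (Pde4d) and 243 bp (4931406C07Rik). None of these 5 was in an AM or 72 h list.

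**Figure D3:**
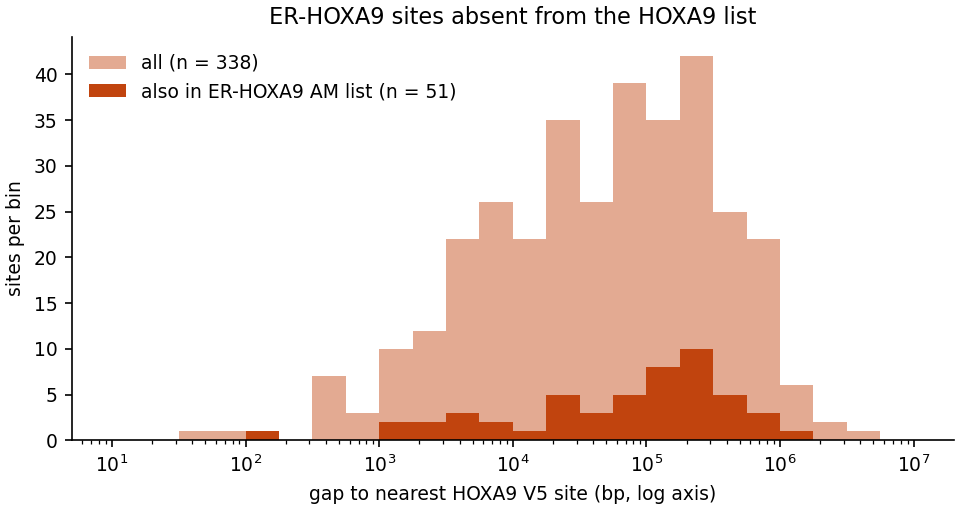
Number of the 338 ER-HOXA9 sites absent from the HOXA9 list by their gap to the nearest HOXA9 V5 site (bp, log axis), with the 51 also in the ER-HOXA9 AM list darker. The median gap was 61015 bp over all 338 and 126487 bp over the 51.

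Few of the sites lay at gene ends. Gene ends were those of 21631 protein-coding genes, both the start and the finish, since the gene table gives no strand. Within 1 kb of a gene end lay 14 of 338 absent sites (4.14%, 2.28 to 6.85), against 50 of 1079 shared sites (4.63%) and 4.52% of all ER-HOXA9 V5 sites, a difference of -0.492 points (-2.68 to 2.41). The promoter table gives start sites, also of non-coding genes, but none on chromosome 18. The 6 absent and 44 shared sites there could not be counted near a start site or in a promoter window. They stay in the totals of both measures. Within 1 kb of such a start site lay 22 absent sites (6.51%), against 53 shared sites (4.91%). By that measure the absent sites had the larger share, and no interval was computed. Within 10 kb lay 78 absent sites (23.1%), against 29.6% of shared sites and 28.0% of all ER-HOXA9 V5 sites, a difference of -6.49 points (-11.5 to -1.02). Over 100 kb away lay 75 absent sites (22.2%), against 16.4% of shared sites and 17.8% of all, a difference of 5.79 points (1.07 to 11.0). The median distance was 30625.5 bp in absent sites and 24775 bp in shared sites. Inside a gene body lay 159 absent sites (47.0%), against 48.8% of shared sites and 48.4% of all, a difference of -1.80 points (-7.84 to 4.30). Set against the HOXA9-only sites, of which 12.1% lay within 1 kb of a gene end, the absent sites differed by -8.01 points (-9.74 to -5.27).

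**Figure D4:**
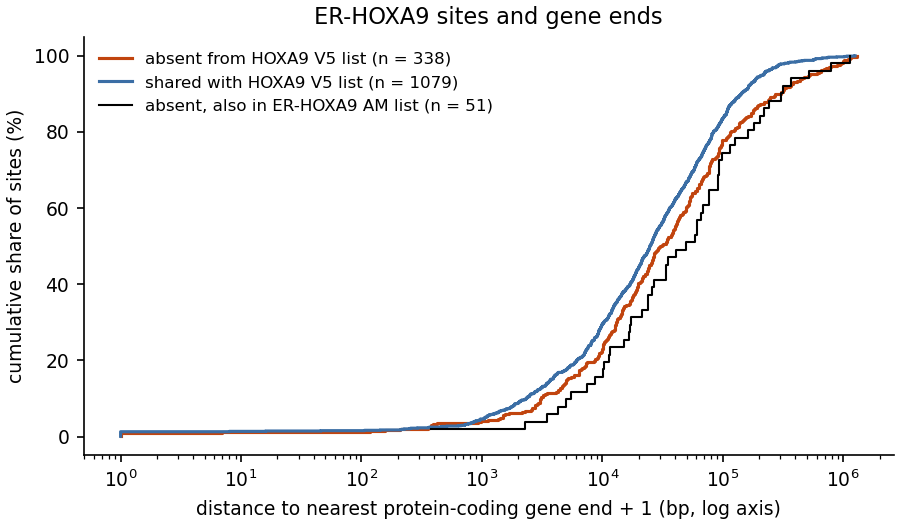
Cumulative share of ER-HOXA9 sites (%) by distance to the nearest protein-coding gene end (bp plus 1, log axis), for the 338 absent sites, the 1079 shared sites and the 51 absent sites also in the ER-HOXA9 AM list. Beyond a few kb the curve of absent sites runs to the right of that of shared sites for most of its length, with medians of 30625.5 bp in absent sites and 24775 bp in shared sites.

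Genes with a site within 1 kb of an end are named because they are few, after their values were seen. Touching or within 10 bp of a gene end were those at Cbfa2t3, Mrgpra9, a Mas-related receptor, Ccdc54 and Havcr2. At the Havcr2 site, 264 bp at chr11:46454662-46454925, the distance to the gene was 6 bp. Others lay 117 bp from Gm48350, 155 bp from Stard10, a lipid transfer protein, 206 bp from Hoatz, 358 bp from Memo1, 379 bp from Pgls, 393 bp from Odf3b, 425 bp from Pkd1l2, 934 bp from Gpr12 and 976 bp from Edem3. Of the 14, the Pgls site was the 1 in the ER-HOXA9 AM list.

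The 338 sites had 303 distinct nearest genes, of which 65 were also nearest to a shared site. How many of all genes were nearest to a shared site was not counted. The 65 thus show neither more nor less overlap than over all genes. Gene lists, which were chosen with earlier results of these data known, were counted by genes with a site within 10 kb, beside 213 of all 21631 protein-coding genes (0.985%). In the list of stem and progenitor genes 5 of 25 had one, in the list of HOXA9 targets and cofactors 5 of 30, and in the lymphoid list 1 of 20 (Ebf1, also in the list of HOXA9 targets). Meis1 and Flt3 were counted in both the stem and progenitor list and the list of HOXA9 targets. A shared site lay within 10 kb of 6 of 25 stem and progenitor genes (24.0%) and of 7 of 30 HOXA9 targets and cofactors (23.3%), against 3.10% of all genes. A HOXA9 V5 site lay that near to 56.0% of the stem and progenitor genes and 53.3% of the HOXA9 targets and cofactors, against 33.4% of all genes. No gene had a site within 10 kb among 30 myeloid transcription factor genes, 12 primary granule genes, 34 neutrophil maturation genes, 22 monocyte and macrophage genes, 20 cell cycle genes, 20 housekeeping genes or 11 matched genes of repeat-prone loci. Shared sites lay that near to 4 (13.3%), 4 (33.3%), 3 (8.82%), 2 (9.09%), 1, 0 and 1 of these genes in turn, against 3.10% of all genes. With 0.985% of all genes, lists this short would hold few or none, so these zeros show no contrast with all genes. Among 32 genes known as targets of the estrogen receptor none had a site within 10 kb or within 100 kb, where 3.59% of all genes had one. A shared site lay within 10 kb of 0 of the 32 and within 100 kb of 2 (6.25%), against 10.7% of all genes within 100 kb. With 3.59% of all genes a list of 32 would hold few or none, so no depletion is shown. Gene length moved with the counts of absent sites near genes. Of genes over 100 kb in length 4.24% had a site within 10 kb, against 0.258% of genes up to 10 kb, and the median length was 25893 bp in the stem and progenitor list and 7571 bp in the myeloid transcription factor list, against 17329 bp over all genes. Among genes over 100 kb long, 2 of 6 stem and progenitor genes had a site within 10 kb, and among genes of 10 to 50 kb 2 of 9, against 0.648% of all genes of that length. The part of gene length was not tested further.

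Meis1, the homeodomain cofactor of HOXA9, held a site of 248 bp at chr11:18883548-18883795, inside the gene and 3120 bp from its end. The whole Meis1 gene lay 66003 bp from the nearest HOXA9 V5 site. Ebf1 held the 505 bp site at chr11:44881189-44881693, which was in the AM list, and the gene lay 113628 bp from any HOXA9 V5 site. Camk2d, a calcium-dependent kinase, held a site of 326 bp at chr3:126751494-126751819, with the nearest HOXA9 V5 site 922848 bp from the gene. None of these 3 genes overlapped a HOXA9 V5 site, whereas Flt3, Foxp1, Msi2 and Gfi1b each overlapped at least 1.

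Flt3, a receptor tyrosine kinase of early progenitors, held an AM-listed site of 375 bp at chr5:147366349-147366723, inside the gene and 33766 bp from its nearer end. Foxp1, a forkhead transcription factor, held a site of 212 bp at chr6:99188947-99189158. Msi2, an RNA-binding protein of stem cells, held 2 sites of 277 and 269 bp, at chr11:88602479-88602755 and chr11:88625163-88625431. Dntt, the terminal transferase of lymphoid precursors, had a site of 269 bp lying 6672 bp outside it and its nearest HOXA9 V5 site 30041 bp away, and Gfi1b, a repressor of erythroid and megakaryocytic precursors, had one of 199 bp lying 9890 bp outside it. Of these, the Ebf1 and Flt3 sites were in the AM list and none was in the 72 h list.

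H3K4me3 in the ER-Hoxa9-Lys-GFP cells lay over few of the sites. By 1 bp of overlap it covered 3 of 338 absent sites in E2 (0.888%), against 50 of 1079 shared sites (4.63%) and 3.74% of all ER-HOXA9 V5 sites. After 24 h without E2 and restoration it covered 10 absent sites (2.96%), against 94 shared sites (8.71%) and 7.34% of all. After 40 h it covered 13 absent sites (3.85%), against 93 shared sites (8.62%) and 7.48% of all. After 72 h the counts were again 13 absent sites (3.85%) and 93 shared sites (8.62%), with 7.48% of all. At 120 h without E2 it covered 15 absent sites (4.44%), against 135 shared sites (12.5%) and 10.6% of all. The H3K4me3 lists were of unequal length, from 17497 peaks in E2 to 23835 at 120 h. With each list reduced to its widest 17497 peaks the absent sites covered numbered 3 in E2, 9 after 24 h, 10 after 40 h, 9 after 72 h and 11 without E2 for 120 h.

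In any of the 5 lists H3K4me3 lay over 24 absent sites (7.10%, 4.60 to 10.4), against 200 shared sites (18.5%) and 15.8% of all, a difference of -11.4 points (-14.8 to -7.51). Within each of the 4 classes of width the interval of the difference included 0. The classes from 446 bp up held only 18 and 5 absent sites, so their intervals are wide. The mark lay over 4.92% of absent sites and 3.60% of shared sites in the narrowest class, and over 12.7% of absent sites and 16.6% of shared sites between 333 and 445 bp. Between 446 and 594 bp it lay over 5.56% of absent sites and 15.5% of shared sites, and in the widest class over 2 of 5 absent sites and 27.8% of shared sites. Scored at the midpoint of each site, which takes no account of width, the mark lay over 15 absent sites (4.44%), against 77 shared sites (7.14%) and 6.49% of all, a difference of -2.70 points (-5.12 to 0.386). With the 5 lists merged, the mark covered 50% or more of 14 absent sites (4.14%), against 78 shared sites (7.23%) and 6.49% of all, a difference of -3.09 points (-5.46 to -0.0556). Within 1 kb of the mark in any list lay 43 absent sites (12.7%), against 274 shared sites (25.4%) and 22.4% of all, a difference of -12.7 points (-16.8 to -7.97). Of the HOXA9-only sites, whose median width was 299 bp, 19.7% lay under the mark in any list and 25.4% within 1 kb of it. For sites under the mark, absent sites differed from HOXA9-only sites by -12.6 points (-15.0 to -9.33). The part of width in these differences was not tested. Among sites of the ER-HOXA9 AM list the mark lay over 7 of 51 absent sites (13.7%), against 48 of 204 shared sites (23.5%).

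Of the 24 sites, 14 were under H3K4me3 at 120 h and not in E2, 2 in E2 and not at 120 h, 1 in both and 7 only in restored lists. In the same order the counts were 97, 12, 38 and 53 among the 1079 shared sites. Among all 1417 ER-HOXA9 V5 sites they were 111, 14, 39 and 60, so the excess at 120 h was not particular to absent sites. The absent site in both, inside Dlg2, a synaptic scaffold protein, was the only one of the 338 under the mark in all 5 lists (0.296%), against 2.69% of shared sites and 2.12% of all. The Dlg2 site was covered over 13 to 63 bp in the 5 lists, at its edge. The 2 sites covered in E2 and not at 120 h were those at Gpr12 and inside Pcdh7, a protocadherin. At Gpr12 the mark covered 238 bp in E2, 328 bp after 24 h, all 334 bp after 40 h and 45 bp after 72 h. It was not called there at 120 h. In Pcdh7 it covered 182 bp in E2 only.

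The mark lay in all 4 lists after E2 withdrawal and not in E2 at 6 of 338 absent sites and 7 of 1079 shared sites. Over all 1417 ER-HOXA9 V5 sites the count was 13. Of sites covered at 120 h and not in E2, that pattern held at 6 of 14 absent and 7 of 97 shared sites. The 6 absent sites were nearest to Pgls, a pentose phosphate pathway enzyme, Edem3, which acts in glycoprotein degradation, and Macroh2a1, a histone variant. The rest were nearest to Rictor, a subunit of the mTORC2 kinase, Spring1, a regulator of SREBP processing, and Rfx8. The Pgls site, 432 bp at chr8:71591374-71591805 and in the AM list, was covered over all of its 432 bp in each of the 4 lists, and the Edem3 site over all of its 262 bp. The Macroh2a1 site was covered over 125 to 173 bp of its 344 bp, the Rictor site over 64 to 207 of its 251 bp and the Spring1 site over 15 to 97 of its 262 bp, so these were covered in part. The Rfx8 site was covered over 36 to 90 bp in the restored lists and over all of its 231 bp at 120 h. The Flt3 site was covered over 182 bp at 120 h only, and a site of 369 bp nearest to Nrgn, also in the AM list, over 185 bp at 120 h only. The 621 bp site in Map3k1 was covered over 290 bp at 24 h and 251 bp at 120 h.

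**Figure D5:**
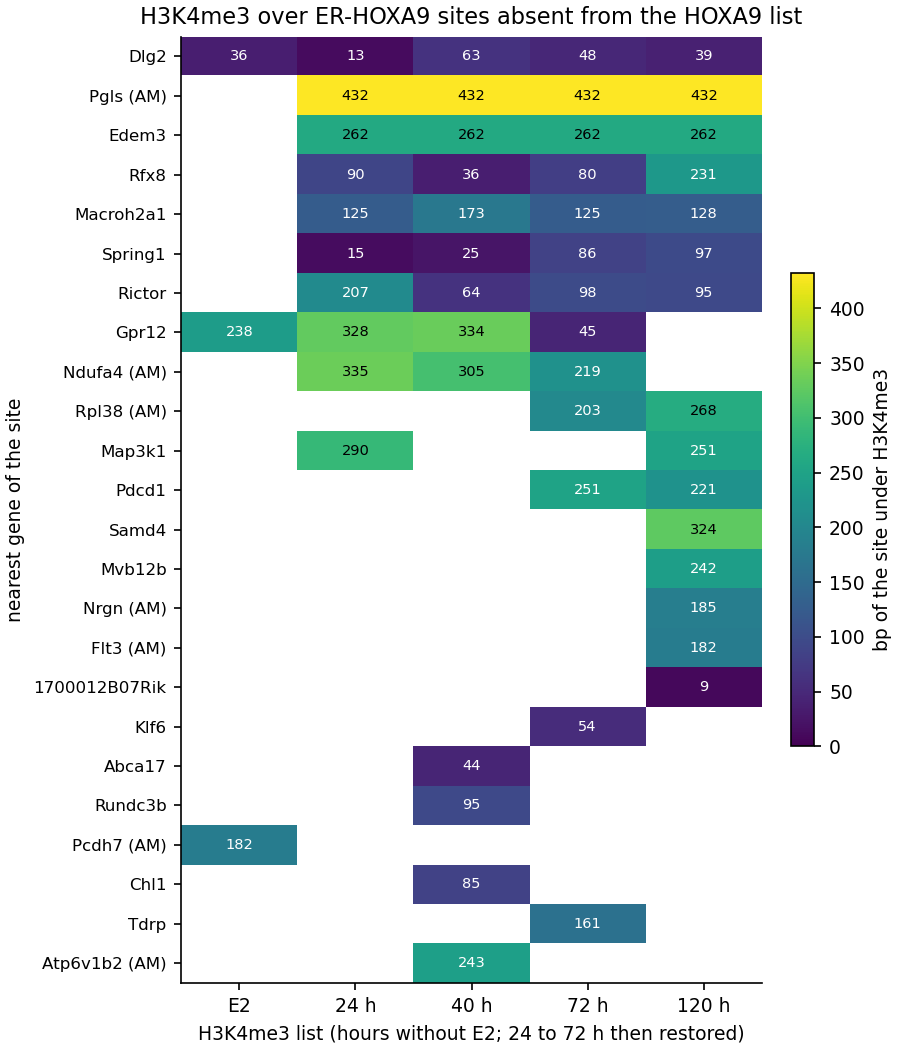
Bases of each site under H3K4me3 (bp, number and colour) in the 5 H3K4me3 lists, for the 24 of 338 absent sites under the mark in any list, named by nearest gene, with AM after those in the ER-HOXA9 AM list and white for 0 bp. Of the 24, 3 were covered in E2 and 15 at 120 h, and the Pgls and Edem3 sites were covered in full in the 4 lists after E2 withdrawal.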

How the data were processed

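The deposited files were peak lists of single ChIP-seq libraries, holding coordinates per the file contents and no score, count or p-value. Bowtie2 2.0, BWA, MACS2 2.0, mm9 and mm10 are named, per the submitters' processing notes. The sources used here do not give which tool made which file, the threshold or the read depth. The builds were inferred. H3K4me3 lists were taken as mm10, as 58.5% to 69.3% of their peaks lay within 1 kb of a GRCm38.p6 gene end. The V5 and AM lists were taken as mm10 too, with 11.7% for the HOXA9 V5 list and 4.52% for the ER-HOXA9 V5 list, which alone settles no build. H3K27ac and H3K27me3 lists end between 196957583 and 197003115 on chromosome 1, and H3K4me3 lists by 195241987. The H3K27 lists were taken as another build and were not used, nor was chromosome Y.

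Sites were joined by 1 bp of overlap. The nearest gene is that with the nearest end among 21631 protein-coding genes. Named genes are those of the 12 widest sites, the 10 widest in each other V5 or AM list, the H3K4me3 classes, the smallest gaps and the listed genes within 10 kb; some are not reported here. The sites and gene lists were chosen with earlier results of these data known. The interval and overlap scripts were tested on simulated data. Python 3.11.15, pandas 2.3.3, NumPy 2.4.6, SciPy 1.17.1 and matplotlib 3.10.9 were used. Alternatives were other overlap rules and windows, the H3K4me3 lists at equal length, and subsets by width, distance and the AM list.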

Additional observations from a re-analysis of the deposited data

How the results depend on the processing

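Over 65 alternatives to 13 results, 40 values moved by less than the counting interval (or, for counts, within 1.5 times) and 25 moved further. With the ER-HOXA9 list reduced to sites above its median width, 23 of 708 were absent from the HOXA9 list, and requiring the ER-HOXA9 AM list left 51. Among the 169 sites above the median width of the 338, the AM share was 29.0%. With 500 bp of slack the HOXA9 AM share was 1.78%, and it was 0% for the 325 sites with no HOXA9 V5 site within 1 kb. In windows of 5 and 10 kb around gene ends the share was 14.8% and 23.1%. With H3K4me3 counted within 1 kb the share was 4.73% in E2, 7.99% both at 24 h and at 120 h, 7.69% at 40 h and 6.80% at 72 h. With 50% of the site covered it was 1.18% at 24 h, 1.48% both at 40 h and at 72 h, and 2.37% at 120 h, and at the midpoint 1.48% at 40 h and 1.78% at 72 h. Among the 51 sites of the AM list the 72 h share was 9.80%, the gene end share 1.96%, the H3K4me3 share at 120 h 7.84%, the median width 395 bp and the count of stem and progenitor genes 1. That count was 8 within 100 kb and 3 inside the gene. Chosen after seeing the data were all alternatives using an AM list to filter sites, the shares in other V5 and AM lists among distant or wide sites, leaving the HOXA9 AM list out, the midpoint, and all those of the gene list. Requiring 50% cover by a HOXA9 V5 site could not alter the 338, as overlapping intervals have identical coordinates. Wider windows and stricter cover change the values by construction, and for the subsets the cause was not tested. The H3K4me3 lists reduced to their widest 17497 peaks moved no share beyond its interval. No paired analysis was possible because each group has 1 library and no test was made. With 1 library a group, unknown read depth and coordinates without scores, a site missing from a list may still have been bound below its threshold.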

Other observations

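Some of the 338 sites lay in runs. Within 50 kb of another of the 338 were 47 sites, in 22 pairs and 1 group of 3. Runs were not counted among shared sites, so they are not shown to be particular to the 338. The group of 3 lay in the immunoglobulin kappa locus (chr6:67555636-70723923), which held 4 of the sites, 0 shared sites and 1 HOXA9-only site. Of the 4, 1 was in the ER-HOXA9 AM list. The immunoglobulin heavy chain locus held 3 of the sites, 3 shared sites and 21 HOXA9-only sites. At Irf2, which encodes an interferon regulatory factor, a pair of 300 and 268 bp lay 1494 and 3183 bp from the gene end, with 2 shared sites within 50 kb. These loci were singled out after their values were seen.

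Within 100 kb, 8 of 25 stem and progenitor genes, 6 of 30 HOXA9 targets and cofactors, 2 of 20 lymphoid genes, and 1 gene each of the myeloid transcription factor (3.33%), primary granule and monocyte lists had a site, against 3.59% of all genes. Myb, a transcription factor of progenitors, had one of 294 bp at 67478 bp, Bcl11a, a zinc finger repressor, one of 269 bp at 26771 bp, and Gfi1, a repressor of granulocyte precursors, one of 308 bp at 33376 bp. Ms4a3, a membrane protein of granulocyte precursors, had one of 186 bp at 16913 bp, and Fcgr1, an Fc receptor of monocytes, one of 192 bp at 26397 bp. Zap70, a kinase of T cells, had one of 246 bp at 52954 bp. Of these 6, none was in the ER-HOXA9 AM list, whereas the site 76467 bp from Gata2 was.

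Among microRNA genes, chosen after their values were seen, Mir34b lay 2394 bp and Mir34c 2929 bp from the site near Hoatz. Mir155 lay 15129 bp from a site of 186 bp nearest to Mrpl39. Mir223, a microRNA of neutrophil precursors, lay 15243 bp from the 472 bp site nearest to Vsig4, which had a HOXA9 V5 site 318 bp away. Over 20 chromosomes the absent sites made up the lowest share of ER-HOXA9 V5 sites on chromosome 18 (6 of 50) and the highest on chromosome X (7 of 20, 35.0%), against 23.9% over all.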
